A study of Homo sapiens with 32 samples.

Results

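U2OS cells, a human osteosarcoma line, were profiled by RNA sequencing after treatment with camptothecin (CPT), a poison of DNA topoisomerase I, and after the vehicle DMSO. The comparison rests on 8 of the 32 libraries of the series, 4 labelled camptothecin-treated (library numbers 26 to 29) and 4 labelled DMSO (30 to 33), and it is described here across all genes measured. The study's methods list 400 nM CPT for the proteomics of U2OS cells, whose RNA was taken from the same cells, and describe a change of medium at 24 h and harvest 48 h later. The labels' protocol text instead calls the U2OS cells untreated, against the treatment label that each of these 8 libraries carries, and the groups here follow the treatment label. The labels name no engineered allele in either group, and all 8 libraries come from 1 cell line grown in the same medium. The labels do not say what separates the 4 libraries of a group, and the study describes them as independent repeats.

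Topoisomerase I relaxes DNA by cutting 1 strand and resealing it. CPT holds the enzyme on the cut strand, and a replication fork or a transcribing polymerase that meets the complex can turn it into a lasting lesion. Cells answer through the kinases ATM and ATR and through the transcription factor p53, whose targets include CDKN1A, a brake on the cyclin-dependent kinases. CDKN1A acts on RB-family proteins, which then keep E2F and DREAM target genes for replication and mitosis low. Cells that stop dividing after damage often alter what they secrete, and growth factors, proteases and cytokines are the usual members of such secretions.

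Each library had from 2887962 to 4161068 counts on genes, and 3 counts, the smallest number taken as detected, correspond to between 0.722 and 1.09 CPM (counts per 1e6 counts on genes after TMM scaling, the unit of every level below; limits of this kind cover counting error only). The method counts 3′ ends, so counts do not grow with transcript length, but levels are compared here between groups and not between genes. Correlations of log2 CPM between libraries of 1 group were 0.967 to 0.983 over 12 pairs, and 0.894 to 0.908 over the 16 pairs of a CPT and a DMSO library. The first principal component held 71.6% of the variance and separated the groups. Mitochondrial genes took 30.5% to 32.3% of the counts in CPT libraries and 20.6% to 26.8% in DMSO libraries, without overlap, and their part in the other results was not tested beyond a fit without them. The U2OS and mesenchymal markers VIM (997 ± 31.8 CPM with CPT and 944 ± 81.6 with DMSO, SD, n = 4), FN1, CDH2 and RUNX2 were present in both groups, while TWIST1 was at 0 in all libraries. Of 6 leukocyte markers the summed level lay between 0 and 3.27 CPM, and of 6 endothelial markers between 0 and 1.44 CPM. The summed level of 10 markers of HEK293T, another line of the series, was 177 to 188 CPM with CPT and 321 to 432 CPM with DMSO. Of the 5 of these that were tested, SOX2 fell and the other 4 did not pass the threshold given below.

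Of 19080 genes tested, 2569 passed the threshold (absolute log2 fold change over 1 and Benjamini-Hochberg adjusted p under 0.05, edgeR quasi-likelihood test), which is 13.5% of them. Transcripts of 1520 genes rose (7.97%) and transcripts of 1049 fell (5.5%). The balance of the directions depends on the scaling: with library size alone in place of TMM, 1251 genes rose and 1535 fell, so that 44.9% of the calls were rises against 59.2% in the scaled data, with a shift of -0.17 in the median log2 fold change of all genes. Without a limit on the fold, 6093 genes (31.9%) had an adjusted p under 0.05, 3176 of them higher and 2917 lower. Counts of list members without the fold limit are to be read against these. In 5743 genes (30.1%) the 2 groups did not overlap, and a count of members without overlap is to be read against that share.

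**Figure D1:**
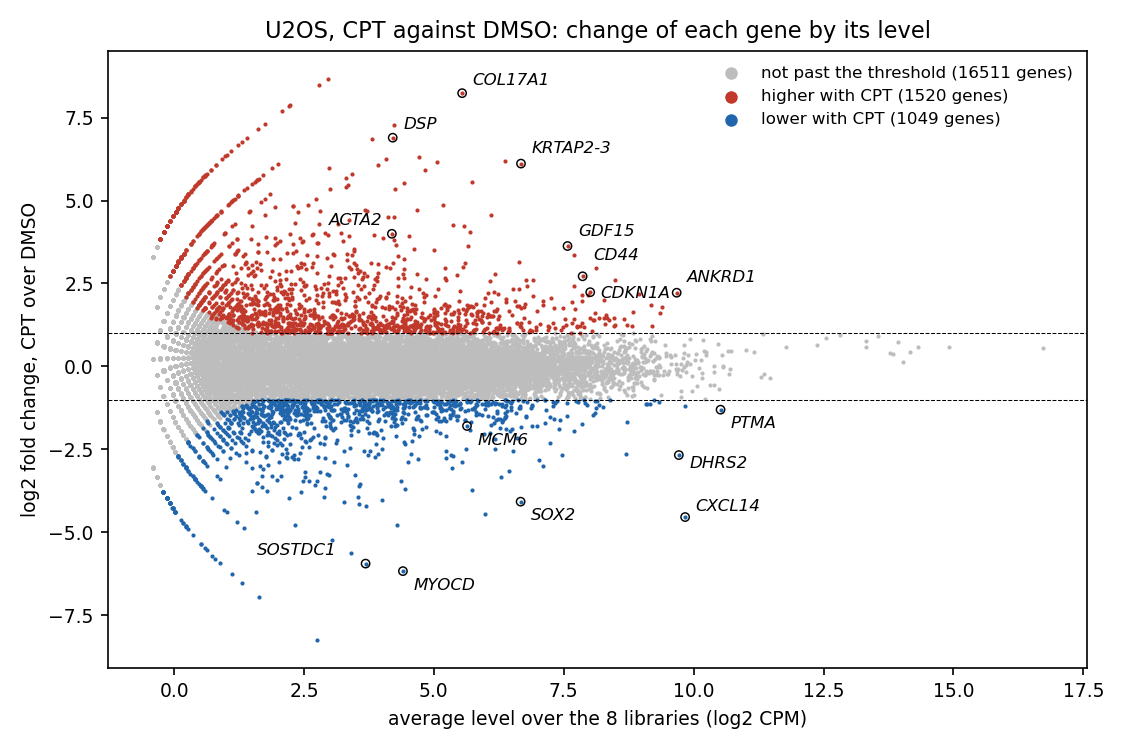
Log2 fold change of CPT over DMSO (vertical axis) against the average level over the 8 libraries in log2 CPM (horizontal axis), 1 point per gene tested, with the fold limits as dashed lines. The 1520 genes that rose are red and the 1049 that fell are blue, and the curved edges on the left are genes without counts in 1 group, whose fitted fold has no fixed size.

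The largest rises were taken among called genes without overlap at an average log2 CPM over 3, which leaves out lower genes such as MMP12 and LAMA3. COL17A1, the transmembrane collagen of hemidesmosomes (chr10:104031286-104085957, GRCh38), had 285, 262, 266 and 319 counts in the CPT libraries against 0, 0, 2 and 2 in the DMSO libraries. The ratio of the summed counts, scaled by the summed library sizes after TMM, was 343 with a 95% counting interval of 134 to 1260, and the groups lay far apart. The long noncoding RNA LNCAROD (chr10:52450874-52755409) had 144, 103, 97 and 116 counts with CPT and 3, 0, 0 and 0 with DMSO. DSP, which encodes the desmosome protein desmoplakin (chr6:7541575-7586717), stood at 42.4, 36.1, 33.1 and 37.2 CPM with CPT and at most 0.538 CPM with DMSO. Its ratio of scaled summed counts was 136 (95% counting interval 52.6 to 500). In these genes the DMSO libraries were at the limit of detection, so that the fold is known only within a wide interval. SLAMF7, a receptor best known from lymphocytes, was measured in both groups (106 ± 10.5 CPM with CPT, 2.13 ± 0.902 with DMSO, log2 fold change 5.57, SE 0.19, adjusted p = 6.19e-20). The antisense transcript FLG-AS1 stood at 165 ± 8.61 CPM against 2.21 ± 1.13, and whether the counting used the strand is not given in the sources used here. Others among the 15 largest rises were the transporter SLC16A12, the keratin KRT34, the proteoglycan ESM1, the cilia gene CFAP58, the hair keratin-associated gene KRTAP2-3, the noncoding RNA LINC00520, the protease MMP3, the transcription factor TFEC and the actin-like gene ACTBL2. KRTAP2-3 and ACTBL2 belong to families with near-identical copies, and their counts are uncertain to that extent.

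The largest falls were taken by the same rule. MYOCD, the smooth muscle and cardiac co-activator of SRF (chr17:12665890-12768949), had 195, 109, 116 and 145 counts in the DMSO libraries and 0, 2, 0 and 4 with CPT. SOSTDC1, a secreted antagonist of BMP and Wnt (chr7:16461481-16530580), was at 22.6, 26.7, 21.7 and 20.9 CPM with DMSO and at most 0.728 CPM with CPT. MAP2K6, a kinase upstream of p38, was at 18.5 ± 3.02 CPM and 0.342 ± 0.299. No CPT library reached the lowest DMSO library in these genes. CXCL14, a chemokine (chr5:135570679-135579279), was the gene with the largest loss in absolute level, at 1304, 1796, 1699 and 2194 CPM with DMSO and 56.4, 74.9, 75.4 and 93.1 CPM with CPT (log2 fold change -4.54, SE 0.16, adjusted p = 6.19e-20). SOX2, a stem cell and neural transcription factor (chr3:181711924-181714436), was at 159, 181, 190 and 223 CPM with DMSO and 9.98, 8.77, 11.7 and 14 CPM with CPT (log2 fold change -4.08, SE 0.16, adjusted p = 5.14e-19). SMOC1, a matricellular protein that acts on BMP signalling, fell from 118 ± 25.9 to 5.36 ± 1.16 CPM. The linker histone H1-1, the mitochondrial carrier SLC25A48, the BH3-only gene BMF, the integrin ITGB3, the laminin LAMA4, C6orf15, the Wnt receptor ligase RNF43 and the dopamine receptor DRD1 were others among the 15 largest falls.

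By absolute level, the largest gains among genes past the threshold included ANKRD1, a target of YAP and TAZ (1346 ± 152 CPM with CPT, 289 ± 66.3 with DMSO), INHBA, which encodes the activin A subunit (1039 ± 62.3 and 302 ± 49.7), CCND2, which encodes cyclin D2 (992 ± 151 and 324 ± 14.6), and the adhesion protein AMIGO2 (907 ± 34.4 and 250 ± 41.8). After CXCL14, the largest losses among them were in PTMA, a small acidic nuclear protein linked to proliferation (844 ± 95.7 CPM with CPT, 2086 ± 284 with DMSO), DHRS2, a short-chain dehydrogenase (227 ± 43.6 and 1450 ± 334), the chromatin protein NUCKS1 (556 ± 10.6 and 1263 ± 163) and IGFBP5 (113 ± 20.9 and 710 ± 54.7).

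The listed targets of p53 moved in 1 direction. Of 38 measured targets, 23 rose and none fell, against 7.97% rising over all genes. At an adjusted p under 0.05 without the limit on the fold 36 were higher, beside 3176 of all 19080 genes. PCNA, a p53 target outside this list, was not called and is given below. The median log2 fold change of the list was 1.27, with a range from 0.38 to 3.63, beside 0.01 over all genes tested. CDKN1A (chr6:36676460-36687339) was at 460, 428, 409 and 408 CPM with CPT and 91.3, 84.7, 88.9 and 96.5 CPM with DMSO (log2 fold change 2.24, SE 0.11, adjusted p = 1.87e-16). MDM2, the ubiquitin ligase that removes p53 (chr12:68808176-68850686), was at 498, 528, 476 and 493 CPM and at 126, 120, 129 and 124 CPM in the same order. The DMSO libraries were tightly grouped in both genes.

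The p53 targets that rose took in several branches. GDF15, a secreted stress factor, was at 297, 335, 369 and 415 CPM with CPT and 17.8, 37.2, 30 and 29.8 CPM with DMSO (log2 fold change 3.63, SE 0.16). The death receptor FAS was at 76.7 ± 15.9 CPM against 11.3 ± 1.54, and the death receptor TNFRSF10B at 86.7 ± 10.7 against 39.4 ± 4.66. GADD45A, a growth arrest protein, was at 168 ± 3.93 against 33.5 ± 6.35. Both death receptors therefore rose together with the arrest genes. The repair branch was represented by the ribonucleotide reductase subunit RRM2B (log2 fold change 1.86) and DDB2 of nucleotide excision repair (1.29), and the metabolic branch by TIGAR (1.54), SESN1 (1.44) and SESN2 (1.48). The targets ZMAT3 and BTG2 also rose, by 1.76 and 1.25 on the log2 scale. Among mitochondrial death genes, BBC3, which encodes PUMA, was at 148 ± 5.99 and 103 ± 8.55 CPM (log2 fold change 0.52, SE 0.11, adjusted p = 3.83e-04, under the fold limit). BAX was at 7.17, 13.2, 16.8 and 27.4 CPM with CPT and 9.15, 12.7, 11.4 and 15.9 CPM with DMSO, so that its groups overlapped (adjusted p = 0.274).

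Other regulators of death outside the p53 list went both ways. BCL2L1, which encodes the survival protein BCL-XL, rose from 31.3 ± 6.09 to 85 ± 14.8 CPM (log2 fold change 1.44, SE 0.14, adjusted p = 1.75e-09). The BH3-only genes BMF and BCL2L11, the latter encoding BIM, fell. BMF was at 19.1, 26.1, 14.3 and 21.2 CPM with DMSO and near 1 CPM in each CPT library (1.09 ± 0.186). BCL2L11 was at 43.4 ± 9.06 CPM with DMSO and 12.3 ± 2.07 with CPT. Of the 16 BCL2 family genes measured 2 rose and 2 fell (12.5% each, beside 7.97% and 5.5% of all genes). BCL2A1, the other gene that rose, was near the limit of detection (0.802 ± 0.828 and 0.0715 ± 0.143 CPM) and was no longer called without any 1 of the CPT libraries 26 and 27 and the DMSO libraries 30, 31 and 33 (adjusted p = 0.0844 without library 31), which left 1 rise.

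Genes of DNA replication and of mitosis were lower, most of them by less than a factor of 2. Of 49 genes of the G1/S transition and DNA replication 13 fell and none rose, and 36 were lower at an adjusted p under 0.05 without the fold limit (median log2 fold change -0.64). Of 45 genes of G2/M and mitosis 13 fell and none rose, and 41 were lower at an adjusted p under 0.05 (median -0.90). Many of the mitotic genes lay just inside the fold limit: with library size alone as the scaling 25 of the 45 fell. Over all genes 5.5% fell, and 2917 of 19080 were lower at an adjusted p under 0.05 without the fold limit. In bulk RNA, fewer cells with a transcript and less of it per cell cannot be told apart. MCM6, a subunit of the replicative helicase, was at 83.5, 72.6, 74 and 71 CPM with DMSO and 21.8, 20.9, 22.9 and 20.9 CPM with CPT (log2 fold change -1.80, SE 0.13, adjusted p = 1.33e-12). MCM7 (log2 fold change -1.48) and MCM2 (-1.39) fell as well, as did the transcription factors E2F2 (-1.76) and E2F1 (-1.21). PCNA, the sliding clamp, which is also a p53 target, was at 172 ± 28.9 CPM with CPT and 172 ± 23 with DMSO, and its groups overlapped (log2 fold change 0.00, SE 0.13, adjusted p = 0.990).

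In the mitotic list PLK1, the polo-like kinase of mitotic entry, was at 73, 73.2, 81.8 and 95.3 CPM with DMSO and 26.2, 29.7, 30.6 and 30.7 CPM with CPT (log2 fold change -1.47, SE 0.13, adjusted p = 1.55e-10). The kinesin KIF20A was at 137 ± 29.5 and 51.9 ± 5.54 CPM, cyclin A2 (CCNA2) at 162 ± 10.8 and 72.9 ± 9.13, and the survivin gene BIRC5 at 114 ± 18.5 and 49 ± 6.42. MKI67, the source of the proliferation antigen, was at 624, 706, 830 and 969 CPM with DMSO and 323, 367, 394 and 340 CPM with CPT (log2 fold change -1.14, SE 0.12). Every CPT library lay below every DMSO library in these genes. Some mitotic genes stayed within the fold limit, among them CCNB1 (158 ± 15.2 with DMSO, 85.6 ± 3.31 with CPT, log2 fold change -0.88), CCNB2 (-0.96, and -1.01 and called without DMSO library 32) and TOP2A (-0.68), and CDK1 was at 200 ± 5.71 and 178 ± 22.4 CPM (log2 fold change -0.17, SE 0.11, adjusted p = 0.258).

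The promoters of both lists were searched for the elements known to control them, on both strands, in windows of 250 bases before to 50 bases after the start in RefSeq (GRCh38.p14). The cell cycle homology region (CHR, TTTGAA) was in 26 of 38 G2/M promoters with a sequence (68.4%) and in 15.4% of all 27305 promoters, and CCAAT was in 29 of the 38 (76.3%) and in 35.7% of all. The E2F site (TTTGGCGC or TTTCCCGC) was in 19 of 42 G1/S promoters (45.2%) and in 2.31% of all. Within the G2/M list the 26 genes with a CHR had a median log2 fold change of -0.94 and the 12 without one -0.82. The 29 with CCAAT had -0.93 and the 9 without it -0.76. With and without the element, 34.6% and 25% fell for the CHR and 31% and 33.3% for CCAAT. Within the G1/S list the 19 genes with an E2F site had a median of -0.59 and the 23 without one -0.60. The CHR was thus more frequent in the G2/M list, and the E2F site in the G1/S list, than over all promoters. CCAAT was less particular: it was also in 54.8% of G1/S, 61.9% of smooth muscle and 60% of matrix protease promoters. Inside a list the medians were close for the E2F site and further apart for the CHR and CCAAT, which was not tested. A match is a description of the letters and no measurement of binding. PLK1 (chr16:23678639-23678938, plus strand) and CCNB2 (chr15:59104896-59105195, plus strand) are printed as G2/M examples with CHR and CCAAT in capitals, the CHR beginning at -29 from the start in both; the RefSeq start of PLK1 lies inside the gene as GENCODE annotates it. MCM6 (chr2:135876394-135876693, minus strand) is printed as the G1/S example with the E2F sites at -152 and -90 in capitals.
PLK1: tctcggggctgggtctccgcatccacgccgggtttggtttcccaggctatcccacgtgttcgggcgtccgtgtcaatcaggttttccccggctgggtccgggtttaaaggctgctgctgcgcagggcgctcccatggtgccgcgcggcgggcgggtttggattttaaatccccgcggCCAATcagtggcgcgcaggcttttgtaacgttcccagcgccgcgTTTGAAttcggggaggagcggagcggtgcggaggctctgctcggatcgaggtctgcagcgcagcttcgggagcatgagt
CCNB2: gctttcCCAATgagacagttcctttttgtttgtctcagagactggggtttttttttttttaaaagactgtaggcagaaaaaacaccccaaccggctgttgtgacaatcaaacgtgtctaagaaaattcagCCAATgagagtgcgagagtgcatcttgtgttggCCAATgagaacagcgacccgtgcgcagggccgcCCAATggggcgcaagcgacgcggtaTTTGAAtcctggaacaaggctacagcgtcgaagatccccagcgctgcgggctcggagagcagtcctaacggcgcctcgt
MCM6: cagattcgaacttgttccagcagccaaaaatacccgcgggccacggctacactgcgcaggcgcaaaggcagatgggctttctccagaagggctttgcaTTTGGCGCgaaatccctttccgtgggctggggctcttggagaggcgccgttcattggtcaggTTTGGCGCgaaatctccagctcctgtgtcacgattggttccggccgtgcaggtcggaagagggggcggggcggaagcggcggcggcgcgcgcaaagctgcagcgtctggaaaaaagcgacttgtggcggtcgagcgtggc

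**Figure D2:**
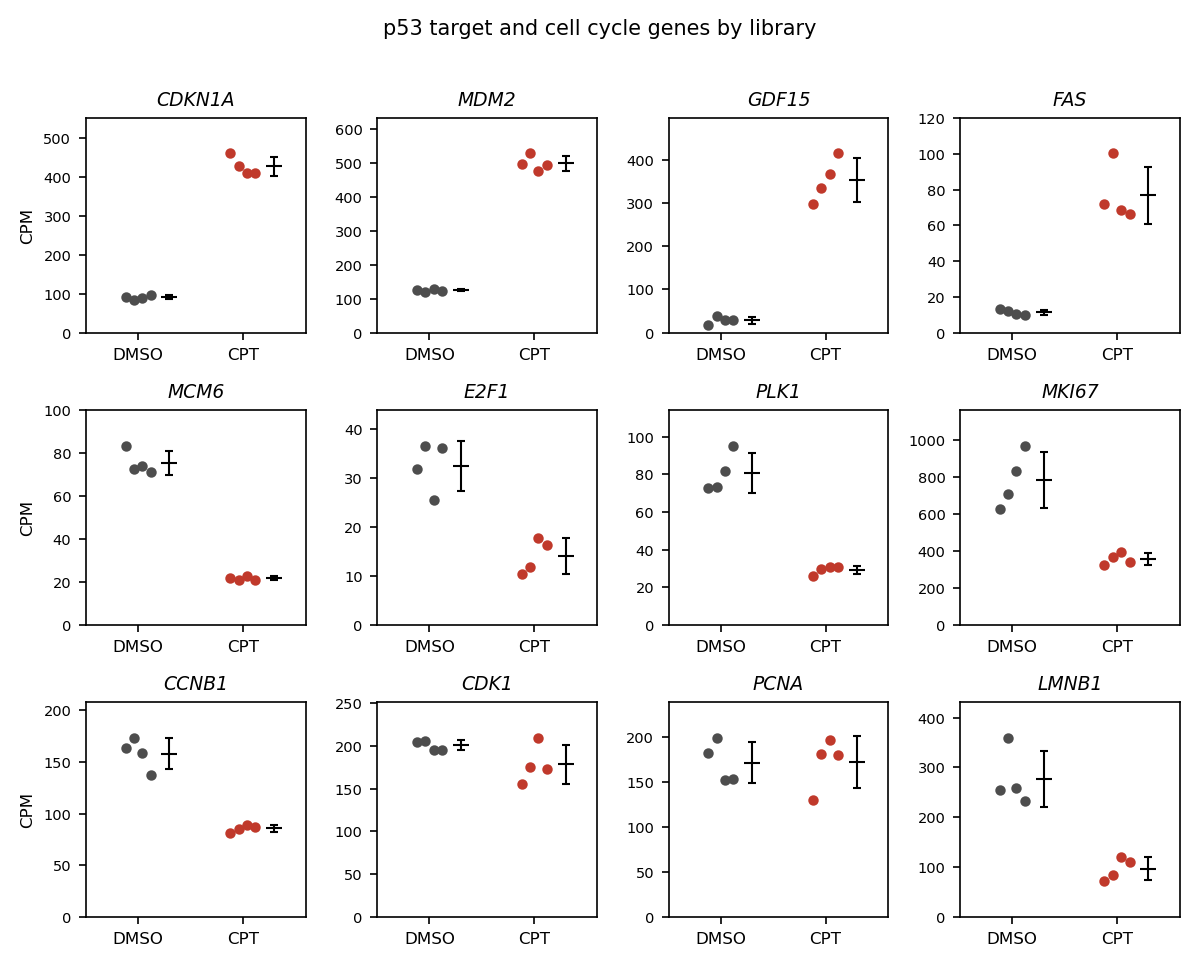
Levels in CPM (vertical axes, each from 0) in the 4 DMSO and 4 CPT libraries for 4 p53 targets in the top row and 8 cell cycle and nuclear genes below, with the mean and SD beside the points. CDKN1A, MDM2, GDF15 and FAS are higher in every CPT library, MCM6, E2F1, PLK1, MKI67, CCNB1 and LMNB1 are lower in every CPT library, and CDK1 and PCNA overlap or nearly so.

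Of 19 G1 regulators and CDK inhibitors measured 2 rose (10.5%) and 4 fell (21.1%), beside 7.97% and 5.5% of all genes, and 13 did not pass. Besides CDKN1A, CCND2 rose, at 1178, 1037, 924 and 828 CPM with CPT and 339, 307, 332 and 317 CPM with DMSO. The CDK inhibitor CDKN1B, which encodes p27, fell (39.3 ± 5.7 CPM with DMSO, 12.6 ± 1.25 with CPT). The inhibitors CDKN2C (26 ± 4.95 and 9.28 ± 0.711) and CDKN1C (24.8 ± 2.07 and 9.41 ± 0.508) fell as well. The other fall was CDKN3, a phosphatase of cyclin-dependent kinases, with a log2 fold change of -1.25. CDKN1A was the inhibitor that rose among those 4, which are named because they passed the threshold. CDKN2A, the source of p16 and ARF, had 3, 0, 0 and 0 counts with CPT and 1, 0, 1 and 0 with DMSO and was not tested. Among the nuclear and lysosomal markers linked to senescence LMNB1, which encodes lamin B1, was at 255, 359, 259 and 233 CPM with DMSO and 72, 84.4, 121 and 111 CPM with CPT (log2 fold change -1.51, SE 0.15, adjusted p = 8.21e-10). HMGB1, a chromatin protein, fell from 295 ± 53.4 to 141 ± 9.12 CPM and the lysosomal fucosidase FUCA1 rose from 34.7 ± 3.58 to 74.9 ± 8.61. GLB1, the gene of the galactosidase used to stain senescent cells, was at 71.8 ± 11.9 and 88.9 ± 11.1 CPM (adjusted p = 0.0654). Of 10 genes of this list 1 rose (10%, near the share of all genes) and 2 fell (20%), and 1 fell without DMSO library 30, where HMGB1 changed by -0.97 on the log2 scale.

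TOP1, the target of the drug, was at 346, 334, 323 and 256 CPM with CPT and 251, 300, 387 and 469 CPM with DMSO, so that the groups overlapped (log2 fold change -0.16, SE 0.14, adjusted p = 0.427). ATM was at 78.4 ± 9.36 and 68 ± 10.3 CPM (adjusted p = 0.242). Of 18 genes of topoisomerases and of the repair of their lesions XRCC1, a scaffold of single-strand break repair, was the 1 that passed the threshold (5.56% of the list, where 5.5% of all genes fell), at 13.7, 12.1, 7.28 and 16.7 CPM with CPT and 15.6, 27.7, 20 and 39 CPM with DMSO, with overlapping groups. Its log2 fold change of -1.03 became -0.86 without CPT library 28 and -0.74 without DMSO library 33, which left no call in this list, and without CPT library 26 there were 2. Of 27 genes of homologous recombination and the Fanconi pathway FANCC was the 1 that fell (3.7%), by 1.02 on the log2 scale. Without the fold limit 16 were lower at an adjusted p under 0.05 (median of the list -0.49), beside 2917 of all 19080 genes. FANCC was at -0.90 without CPT library 27 and also inside the limit without CPT library 28 (-0.98) or DMSO library 30 or 31 (-0.98 without the latter), and 3 genes of this list fell without CPT library 29.

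Among secreted growth and differentiation factors, 43 of 50 chosen genes were measured, and 11 rose (25.6%) and 8 fell (18.6%), beside 7.97% and 5.5% of all genes. Of the 7 ligands of EGF-family receptors in this list 3 rose, AREG, NRG1 and HBEGF, and 4 did not pass, TGFA (48.2 ± 7.73 CPM with CPT, 26.6 ± 3.07 with DMSO, log2 fold change 0.85), EREG, BTC and EGF. NRG2, outside the list and added after its values were seen, fell from 5.17 ± 1.02 to 2 ± 0.576 CPM. AREG, which encodes amphiregulin (chr4:74445134-74455009), was at 65.2, 85, 86.7 and 82.6 CPM with CPT and 2.69, 7.32, 4.29 and 2.89 CPM with DMSO (log2 fold change 4.25, SE 0.20, adjusted p = 4.05e-17). NRG1, a ligand of ERBB3 and ERBB4, was at 72.3, 67.8, 65.9 and 60.4 CPM and at 8.62, 9.23, 8.29 and 7.7 CPM (log2 fold change 2.98, SE 0.15), and HBEGF at 110 ± 14.2 and 28.7 ± 6.31. The receptor EGFR rose from 20.5 ± 1.82 to 49.4 ± 5.05 CPM and the partner ERBB3 fell from 12.9 ± 1.96 to 2.73 ± 1.53. The other rises took in FGF1 (26 ± 3.14 and 4.04 ± 0.6 CPM), TGFB2 (517 ± 86.1 and 189 ± 15.6) and INHBA. The falls took in BMP4 (637 ± 175 CPM with DMSO, 199 ± 15.4 with CPT), PDGFB (40.8 ± 15 and 9.38 ± 2.24), the calcium-regulating hormone STC1 (36.1 ± 2.75 and 9.89 ± 1.23) and BMP6, besides SOSTDC1. The PDGFB level varied from 21.4 to 52.8 CPM among DMSO libraries, all above the highest CPT library at 11.8 CPM.

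Inflammatory cytokines were mostly low. Of 32 cytokines and chemokines 20 were measured, of which 9 rose (45%, beside 7.97% of all genes) and 1 fell (5%, beside 5.5%), and IL6, IL1B, CXCL1, CXCL2, CXCL10, CSF2 and TNF were among the 12 that did not pass the filter on low counts. TNFSF15, a TNF-family cytokine, was at 14, 13.5, 14.9 and 13.1 CPM with CPT and 0.538, 0.318, 0.858 and 1.44 CPM with DMSO (log2 fold change 4.01, SE 0.32, adjusted p = 9.40e-12). IL32 was at 25.3 ± 3.43 and 3.98 ± 1.71 CPM, IL11 at 21.5 ± 5.3 and 6.12 ± 0.32, CSF1 at 17.2 ± 2.33 and 4.85 ± 0.51, CXCL12 at 11.1 ± 4.66 and 2.89 ± 0.882, LIF at 10.1 ± 2.45 and 3.97 ± 2.59 and CCL20 at 7.72 ± 1.13 and 2.14 ± 1.22. The remaining rises, CCL5 and IL1A, lay below 1 CPM on average in both groups and lost their call without single libraries, CCL5 without CPT library 26 (adjusted p = 0.218) or the DMSO libraries 30, 31 and 32 and IL1A without the CPT libraries 26 and 27 or the DMSO libraries 30, 31 and 32 (highest adjusted p = 0.081). CX3CL1 fell from 8.81 ± 2.49 to 1.82 ± 0.487 CPM. The tally leaves out CXCL14, a chemokine outside this list, which fell from 1748 ± 366 CPM with DMSO to 74.9 ± 15 with CPT.

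Of 25 matrix proteases and inhibitors measured, 8 rose (32%, beside 7.97% of all genes) and none fell, and 1 fell when CPT library 26 or 28 or DMSO library 32 was left out. MMP3, stromelysin 1 (chr11:102835801-102843803), was at 86, 47.9, 49.5 and 42.1 CPM with CPT and 0.808, 1.59, 0.572 and 0.722 CPM with DMSO (log2 fold change 5.92, SE 0.30, adjusted p = 2.55e-16). MMP12, the macrophage elastase, was at 21.2, 8.1, 12.7 and 12.1 CPM with CPT and had no counts in any DMSO library, which is at least 66.2-fold higher when 3 counts over the DMSO group are taken as the floor. Among CPT libraries, number 26 was highest in both proteases. TIMP1, an inhibitor of metalloproteinases, rose from 218 ± 49.4 to 593 ± 14.8 CPM and SERPINE2 from 249 ± 30.7 to 590 ± 77.7. Of the 4 IGF-binding proteins measured 1 fell (25%, beside 5.5% of all genes) and 0 rose. Without the fold limit 2 were higher at an adjusted p under 0.05. IGFBP5, the gene that fell, was at 674, 784, 664 and 719 CPM with DMSO and 82.6, 121, 129 and 120 CPM with CPT (log2 fold change -2.65, SE 0.13, adjusted p = 1.25e-16). IGFBP1, IGFBP2 and IGFBP3 did not pass the filter.

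**Figure D3:**
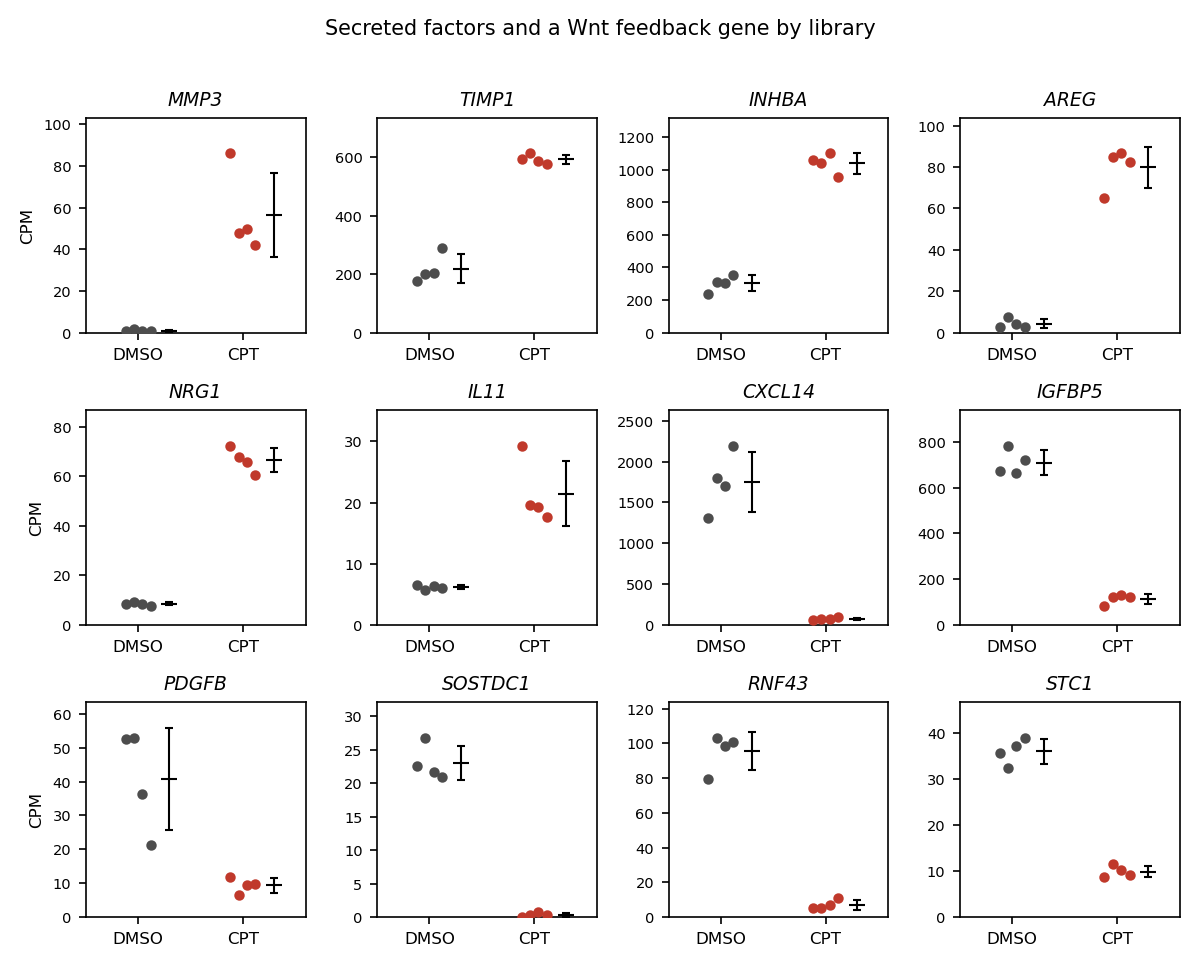
Levels in CPM (vertical axes, each from 0) of 11 secreted factors and of the Wnt feedback gene RNF43 in the 4 DMSO and 4 CPT libraries, with the mean and SD beside the points. The first 6 genes are higher and the last 6 are lower in every CPT library, and MMP3 and IL11 have 1 CPT library above the other 3.

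Matrix and adhesion genes held calls in both directions. Of 33 collagens 9 rose (27.3%) and 2 fell (6.06%), beside 7.97% and 5.5% of all genes: besides COL17A1, the rises included COL12A1 (192 ± 28.6 CPM with CPT, 60.3 ± 9.63 with DMSO), COL27A1 (72 ± 8.56 and 18.2 ± 1.79), COL13A1 (13.4 ± 2.1 and 2.07 ± 0.978) and the basement membrane collagen COL4A1 (304 ± 6.95 and 131 ± 21.4), and the fibrillar COL3A1 fell from 121 ± 29.1 to 41.3 ± 6.5 CPM. Of 30 integrins and laminins 6 rose and 6 fell (20% each). Laminin chains of the epithelial basement membrane rose: LAMA3 had 15.6, 16.9, 14.2 and 15.3 CPM with CPT and 0.269, 0.637, 0 and 0 CPM with DMSO and LAMB3 was at 221 ± 32.1 and 56.1 ± 17. ITGA6, a subunit of a laminin receptor, rose from 173 ± 18.8 to 470 ± 17.8 CPM, and the collagen receptor subunit ITGA2 from 45.4 ± 4.09 to 196 ± 18.4. The falls were in LAMA4, the chain of vascular and muscle laminins (19.9 ± 3.4 CPM with DMSO, 1.24 ± 0.649 with CPT), ITGB3 of the vitronectin receptor (16.2 ± 3.67 and 0.924 ± 0.33), ITGA11, ITGA9, ITGB8 and ITGA8. The last was under 1 CPM in every library and was no longer called without any 1 CPT library (adjusted p = 0.0827 without library 26) or DMSO library 32, and it missed the filter on low counts without DMSO library 30 or 31.

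LAMA3, LAMB3 and COL17A1 also belong to the list of keratins and epidermal genes, of which 38 of 52 were measured, 16 rose (42.1%, beside 7.97% of all genes) and 2 fell (5.26%, beside 5.5%; median log2 fold change 1.15). KRT81, a hair keratin, was at 380, 336, 324 and 366 CPM with CPT and 79.4, 56.7, 57.5 and 69.5 CPM with DMSO (log2 fold change 2.42, SE 0.12, adjusted p = 4.08e-16), and KRT34 at 52.5 ± 7.56 and 0.612 ± 0.327. KRT17, a keratin of stressed epithelium, rose from 112 ± 9.24 to 301 ± 34.1 CPM, and SFN, which encodes 14-3-3 sigma, from 181 ± 25.5 to 482 ± 50.2. The defining genes of keratinocytes were near the limit of detection and went both ways: KRT5 and TP63 did not pass the filter, KRT14 was at 1.52 ± 0.342 CPM with DMSO and 0.091 ± 0.182 with CPT, and KRT6A and DSG3 rose from no counts to 1.18 ± 0.889 and 1.19 ± 0.915 CPM. The summed level of 6 keratinocyte markers lay between 2.49 and 7.09 CPM with CPT and between 1.72 and 3.37 CPM with DMSO. CLDN1, a tight junction protein, was at 94.1 ± 4.75 and 7.72 ± 2.95 CPM (log2 fold change 3.63, SE 0.17) and CDH1, which encodes E-cadherin, at 2.93 ± 0.706 and 0.65 ± 0.511, and of the 15 epithelial identity genes measured 4 rose (26.7%) and 2 fell (13.3%; 1 gene without CPT library 26 or 28 or DMSO library 33).

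Promoters with an AP-1 site (TGANTCA, on either strand) were found for 8 of 29 genes of the epidermal list (27.6%) and for 7.76% of all promoters. Of the other motifs searched, the p53 motif (a single 10-base element) was also more frequent there, in 7 of the 29 (24.1%, beside 6.54% of all). The 29 are members with a promoter sequence, measured or not, and how many of the 8 rose was not tallied. The COL17A1 promoter held no AP-1 match, and the matrix protease list held a similar share of AP-1 sites (4 of 15, 26.7%). Of 622 tested genes with an AP-1 site in the promoter 17.5% rose and 5.47% fell, beside 7.51% and 5.36% of the 12248 tested genes with any promoter sequence. The share that rose was 11.4% for genes with the p53 motif, 13% with a CArG box and 10% with a TEAD site (GGAATG), so a higher share than 7.51% is not particular to the AP-1 site. LAMA3 (chr18:23872770-23873069, plus strand) is printed with its sites at -125 and -69 in capitals. This start lies inside the annotated gene, and 3′ counts do not tell the transcripts of a gene apart where they share a 3′ end.
LAMA3: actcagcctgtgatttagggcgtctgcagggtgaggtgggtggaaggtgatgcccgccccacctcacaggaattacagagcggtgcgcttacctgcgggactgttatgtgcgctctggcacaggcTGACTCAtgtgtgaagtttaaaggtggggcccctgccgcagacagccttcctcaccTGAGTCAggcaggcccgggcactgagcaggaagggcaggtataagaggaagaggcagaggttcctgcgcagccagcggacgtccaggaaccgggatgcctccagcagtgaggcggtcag

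Some contractile genes of smooth muscle rose. Of 24 smooth muscle genes measured 5 rose (20.8%, beside 7.97% of all genes) and 2 fell (8.33%, beside 5.5%), MYOCD and ITGA8, of which only MYOCD fell when any 1 library but DMSO library 33 was left out. ACTA2, smooth muscle actin (chr10:88935074-88991339), was at 32.7, 37.1, 32.4 and 36.9 CPM with CPT and 2.42, 2.55, 2.86 and 0.962 CPM with DMSO (log2 fold change 4.00, SE 0.22, adjusted p = 3.17e-15). MYLK, the myosin light chain kinase gene, was at 401, 419, 381 and 330 CPM and at 38.5, 30.2, 38.6 and 40.2 CPM (log2 fold change 3.37, SE 0.13). CNN1 (37.3 ± 4.71 and 5.44 ± 0.72 CPM), TAGLN (58.6 ± 8.16 and 16.1 ± 1.79) and TPM2 (261 ± 48.7 and 109 ± 12.5) rose too. MYOCD, by contrast, fell to at most 1.31 CPM, and SRF, its DNA-binding partner, was at 55.4 ± 20.2 and 64.7 ± 13.4 CPM (adjusted p = 0.367). The myosin light chain MYL9 was at 29.7 ± 2.05 and 26.7 ± 6.31 CPM (adjusted p = 0.522), so the list did not move as a whole (median log2 fold change 0.22). The CArG box, the site of SRF, was in 5 of 21 smooth muscle promoters (23.8%) and in 1.29% of all, namely those of ACTG2, CNN2, FLNA, MYLK and SRF. MYLK was the gene that rose among these 5, and the promoters of ACTA2, CNN1 and TPM2 held no match. MYLK (chr3:123620499-123620798, minus strand) is printed with its CArG box at -94 in capitals; this start also lies inside the gene, towards its 3′ end, and the counts do not separate the short transcript from the long one.
MYLK: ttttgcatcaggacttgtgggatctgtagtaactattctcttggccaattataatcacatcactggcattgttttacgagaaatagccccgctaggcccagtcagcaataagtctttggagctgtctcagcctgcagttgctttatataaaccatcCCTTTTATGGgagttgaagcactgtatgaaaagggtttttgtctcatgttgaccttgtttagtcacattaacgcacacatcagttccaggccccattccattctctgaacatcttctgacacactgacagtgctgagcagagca

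Other lineage genes moved individually. Of 19 mesenchymal identity genes CD44, the hyaluronan receptor, rose (400, 403, 416 and 403 CPM with CPT, 52.8, 65.3, 60 and 68.6 CPM with DMSO, log2 fold change 2.72, SE 0.12, adjusted p = 6.91e-18), as did the caveolar protein CAV1 (248 ± 43.5 and 59.9 ± 5.2 CPM) and the repressor SNAI2 (37.5 ± 4.76 and 5.98 ± 1.54), while the homeobox gene PRRX1 fell from 15.4 ± 2.24 to 5.04 ± 2.85. That 1 fall became 2 without CPT library 26 or 27 or DMSO library 33 and 3 without DMSO library 32. Of the mesenchymal genes 15.8% rose and 5.26% fell, beside 7.97% and 5.5% of all genes. Of 20 bone and cartilage genes none rose and 4 fell (20%). SOX5 was at 39.8, 36.6, 41.2 and 32.5 CPM with DMSO and 2.81, 5.06, 6.56 and 5.88 CPM with CPT (log2 fold change -2.89, SE 0.20), and SOX6, its partner in chondrogenesis, fell from 29.4 ± 3.45 to 9.81 ± 2.52 CPM. The cartilage proteoglycan ACAN and TNFRSF11B, which encodes osteoprotegerin, were the other falls, TNFRSF11B with a log2 fold change of -1.07 that became -0.87 without CPT library 26 and -0.94 without DMSO library 31. SOX9, which acts with both, was at 237 ± 37.7 and 273 ± 56.2 CPM (adjusted p = 0.264), and the osteoblast regulator RUNX2 at 19.2 ± 2.4 and 16.7 ± 2.65 (adjusted p = 0.368). Of 15 neural genes 3 rose and 3 fell (20% each): the growth cone protein STMN2 stood at 19.7 ± 2.84 CPM with CPT and 0.891 ± 0.22 with DMSO, and SOX2 and MAP2 fell.

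**Figure D4:**
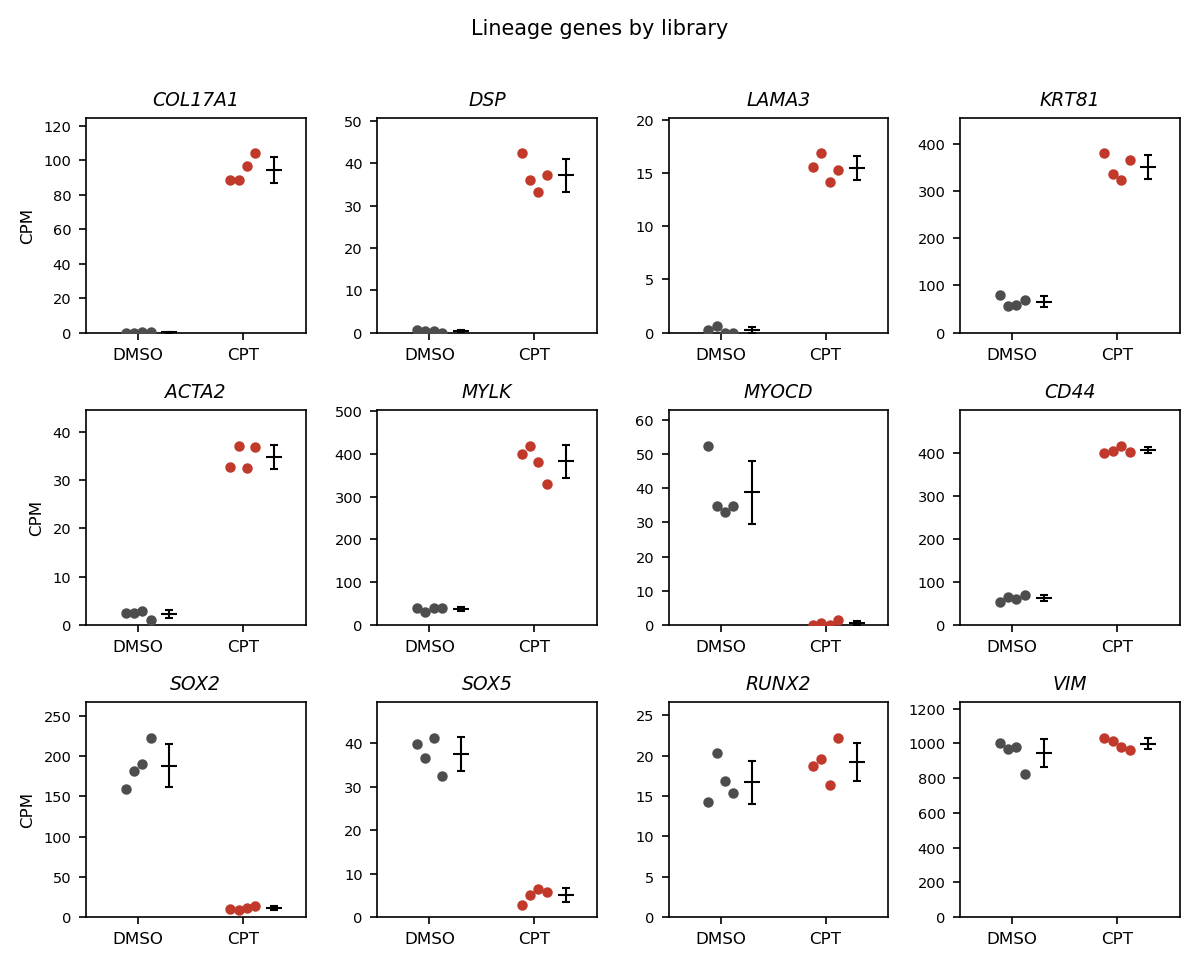
Levels in CPM (vertical axes, each from 0) of 12 lineage genes in the 4 DMSO and 4 CPT libraries, with the mean and SD beside the points. COL17A1, DSP, LAMA3, KRT81, ACTA2, MYLK and CD44 are higher and MYOCD, SOX2 and SOX5 lower in every CPT library, while RUNX2 and VIM overlap.

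Several feedback genes of Wnt and BMP signalling fell. Of 21 targets and antagonists of BMP, TGF-beta and Wnt 7 fell (33.3%, beside 5.5% of all genes) and 1 rose (4.76%, beside 7.97%; median log2 fold change -0.82). RNF43, a ligase that removes Wnt receptors and is itself induced by Wnt, was at 79.4, 103, 98.6 and 101 CPM with DMSO and 5.3, 5.06, 7.28 and 11.1 CPM with CPT (log2 fold change -3.73, SE 0.18, adjusted p = 9.11e-17). The Wnt antagonists NKD1 (21.1 ± 1.23 and 5.22 ± 1.25 CPM), NOTUM (23.4 ± 4.37 and 6.23 ± 1.76) and SFRP1 (160 ± 23.5 and 55.3 ± 9.91) fell with it, while AXIN2 stayed within the fold limit (33.5 ± 9.69 and 18 ± 2.13, log2 fold change -0.88, adjusted p = 2.38e-04, and -1.04 and called without DMSO library 33). ID2 (16.2 ± 1.48 and 6.9 ± 0.767 CPM) and SMAD6 (22.6 ± 2.2 and 10.1 ± 1.25), both induced by BMP, fell beside the ligand BMP4. TGFBI, a matrix protein induced by TGF-beta, was the gene that rose (46.2 ± 5.67 to 158 ± 12.8 CPM).

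Of 27 receptor tyrosine kinases measured 3 rose (11.1%) and 5 fell (18.5%), beside 7.97% and 5.5% of all genes tested. MET, the receptor of hepatocyte growth factor, was at 141, 136, 120 and 134 CPM with CPT and 32, 34.1, 33.7 and 38 CPM with DMSO (log2 fold change 1.94, SE 0.12, adjusted p = 3.53e-14), and EPHA2 rose with EGFR. ROR1, an orphan receptor of WNT5A, was at 246, 235, 239 and 245 CPM with DMSO and 24, 38.1, 32 and 27.1 CPM with CPT (log2 fold change -2.99, SE 0.13, adjusted p = 1.32e-17). The neurotrophin receptors NTRK3 (19.8 ± 1.89 and 1.63 ± 0.878 CPM) and NTRK2 (11.2 ± 3.92 and 3.07 ± 0.581) fell with ERBB3 and EPHA4. Among 16 Notch and Hippo genes ANKRD1, CCN1 (634 ± 45 and 271 ± 73.6 CPM) and the Notch ligand JAG1 (58.4 ± 5.94 and 25.3 ± 5.57) rose (18.8%) and none fell, with 1 fall without DMSO library 31 or 33.

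Inflammatory and stress programmes moved in part. Of 37 interferon-stimulated genes 9 rose (24.3%, beside 7.97% of all genes) and 3 fell (8.11%, beside 5.5%), and members of 1 family went opposite ways: IFIT3 was at 11.2, 11.1, 10.6 and 8.82 CPM with CPT and 1.08, 3.82, 1.14 and 3.37 CPM with DMSO, whereas IFIT1 was at 1.87, 2.02, 1.82 and 0.98 CPM with CPT and 6.73, 7.96, 7.15 and 8.42 CPM with DMSO. TAP1, the antigen peptide transporter, rose from 33.6 ± 9.11 to 87.4 ± 7.81 CPM. Of 18 NF-kB factors and feedback targets 5 rose (27.8%), among them NFKBIZ (46.5 ± 5.51 and 18.8 ± 7 CPM) and RELB (20.2 ± 1.71 and 9.12 ± 0.847), and IER3 fell (398 ± 21.9 and 804 ± 124). The 5 rises were 2 without CPT library 26 and 3 without DMSO library 32. IER3, at a log2 fold change of -1.01, lay inside the limit without CPT library 27 (-0.99) or the DMSO libraries 31 (-0.97) and 33 (-0.95), and 2 genes fell without CPT library 29. Of 19 AP-1 and immediate early genes 8 rose (42.1%) and 3 fell (15.8%; 1 gene without DMSO library 31): ATF3 was at 39.7 ± 3.14 CPM with CPT and 7.65 ± 2.27 with DMSO, the phosphatase DUSP1 at 18.4 ± 3.46 and 4.24 ± 1.18 and MYC at 30.9 ± 2.61 and 12.4 ± 2.88, while FOS fell from 4.91 ± 2.17 to 1.31 ± 0.635.

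In the integrated stress response 2 of 24 genes rose (8.33%, near the 7.97% of all genes) and 4 fell (16.7%, beside 5.5%). ATF3 and SESN2, the rises, also belong to the AP-1 and p53 lists. SLC7A11, the cystine transporter, was at 132, 140, 143 and 104 CPM with DMSO and 39.9, 37.1, 33.9 and 29.1 CPM with CPT (log2 fold change -1.89, SE 0.13, adjusted p = 8.59e-13), and PHGDH, the first enzyme of serine synthesis, fell from 88.9 ± 14.6 to 39.9 ± 1.04 CPM. No gene of the 18 of ER folding and the unfolded protein response passed the threshold. At an adjusted p under 0.05 without the fold limit 13 were higher (median log2 fold change 0.42), beside 3176 of all 19080 genes. Of 25 heat shock genes 4 rose (16%, beside 7.97% of all genes) and 1 fell (4%, beside 5.5%). Without the fold limit 8 were higher and 6 lower at an adjusted p under 0.05. The small heat shock proteins HSPB8 (52.8 ± 11.4 and 12.1 ± 4.58 CPM) and CRYAB (59.9 ± 10.8 and 26.3 ± 6.45) and the cochaperone DNAJB2 (46.9 ± 11.3 and 17.4 ± 2.27) rose. HSPB6 fell and HSPB2 rose near the limit of detection, HSPB2 with an adjusted p of 0.0257 that became 0.0995 without CPT library 29, 0.0613 without DMSO library 31 and 0.075 without DMSO library 33. Without DMSO library 33, 3 genes of this list fell.

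The calls in the metabolic lists are to be read beside the shares of all genes (7.97% higher and 5.5% lower). Of 39 lysosomal genes 5 rose (12.8%) and none fell. At an adjusted p under 0.05 without the fold limit 24 of the 39 were higher (median 0.56), beside 3176 of all 19080 genes. Of those 5, MAN2B1, CD68 and CTSS were at no more than 3 CPM in any library, and 3 rises were left without CPT library 28 (CTSS also lost its call without libraries 26 and 32, and MAN2B1 without library 33). The others were FUCA1 and the sulfatase ARSA (20.4 ± 4.48 and 9.44 ± 4.09 CPM, log2 fold change 1.12, and 0.88 without DMSO library 30). In cholesterol metabolism, with 27 genes measured of which 3.7% rose and 7.41% fell, HMGCS1 rose from 214 ± 20.8 to 494 ± 35.3 CPM, while the exporter ABCG1 (21 ± 2.01 and 3.29 ± 0.967) and the regulator SREBF1 (33.8 ± 7.66 and 15.8 ± 1.92) fell. SREBF1 was inside the limit without DMSO library 30 (log2 fold change -0.97), and 2 genes rose without CPT library 26 or DMSO library 33. Of 22 NRF2 targets AKR1B10 rose and SLC7A11 fell, with 2 falls without DMSO library 32. Of 30 genes of hypoxia and glycolysis 1 rose (3.33%) and 2 fell (6.67%), and these counts ran from 1 to 3 and from 0 to 2 when single libraries were left out. Of the 13 mitochondrially encoded proteins none passed the threshold (1 did without CPT library 26 or DMSO library 32), and 12 were higher at an adjusted p under 0.05 (median 0.58). Among 32 genes of ribosome biogenesis, including MYC, RRP12 and MYC rose. Of 11 long noncoding RNAs linked to damage 6 rose (54.5%), among them PURPL, a p53-induced transcript (135 ± 8.92 and 33.1 ± 4.92 CPM), and PVT1 (109 ± 25.5 and 45.6 ± 8.62).

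**Figure D5:**
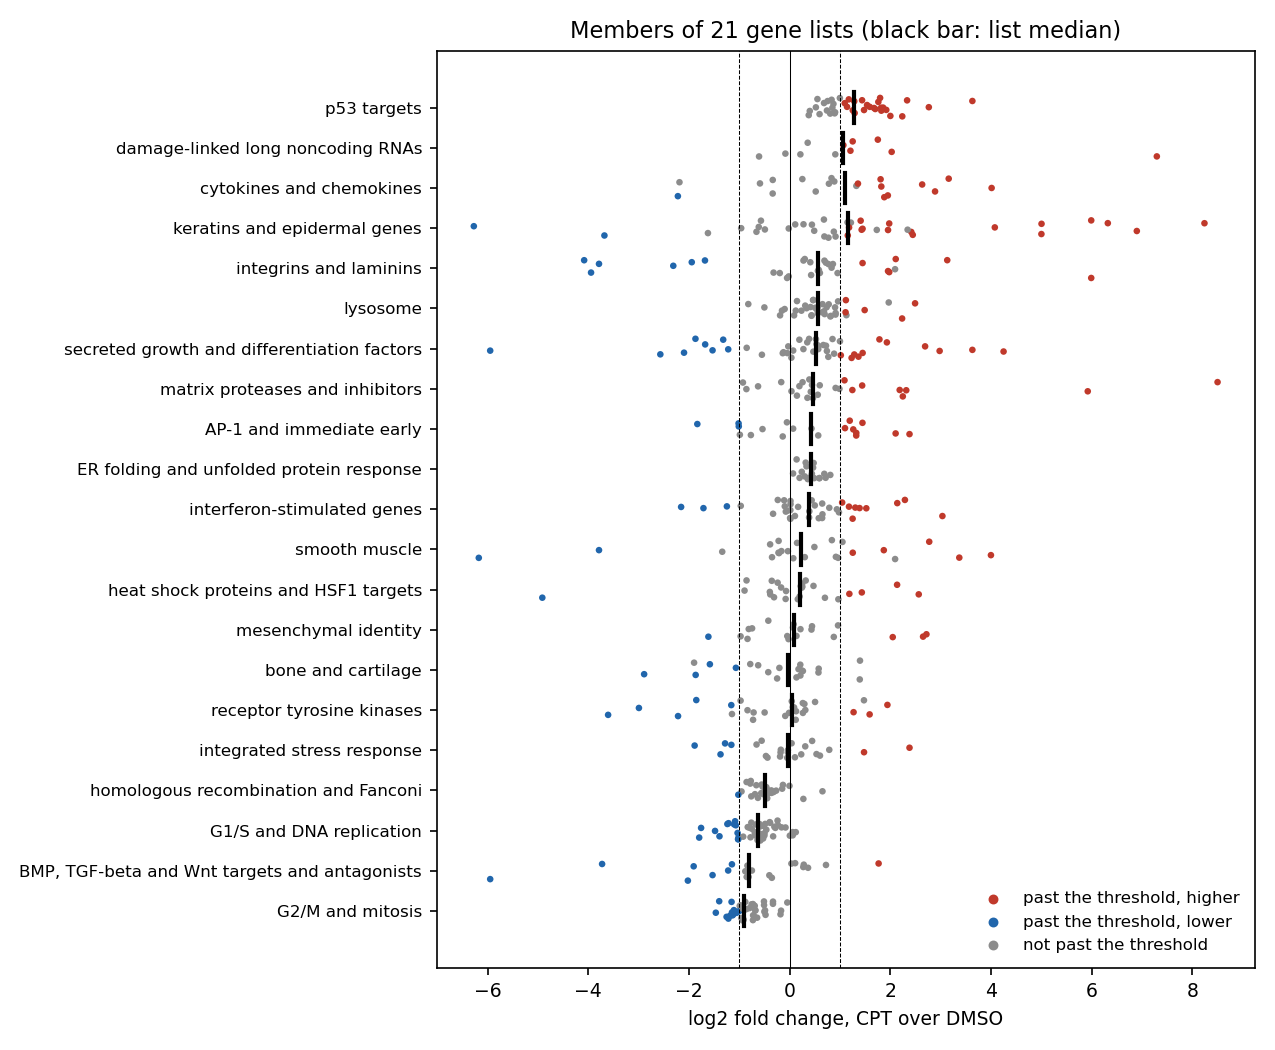
Log2 fold change of CPT over DMSO (horizontal axis) for each measured member of 21 gene lists (rows), with the median of a list as a black bar and the fold limits as dashed lines. Members of the p53 list all lie above 0 with a median of 1.27, members of the G2/M list all lie below 0 with a median of -0.90, and the lineage and secreted lists hold large changes in both directions.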

How the data were processed

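The QuantSeq 3′ kit reads transcripts near their 3′ end. The authors deposited counts per gene, made on the BlueBee platform by Lexogen's pipeline for forward libraries with molecular identifiers, and the aligner, genome build and annotation are not given in the sources used here. The table held 60107 gene rows, of which 56104 matched a gene symbol in the reference table. Left out of library sizes and tests were 92 spike-in rows, which held at most 1 count in a library, and 5 summary rows. Reads on no gene were 30.9 to 39.9% of a library with CPT and 33.6 to 38.7% with DMSO. Totals on genes were 2887962 to 3398614 with CPT and 2906276 to 4161068 with DMSO. Libraries of a group differed by more than sampling noise (chi-square per gene 1.82 or more), so all 8 were kept.

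A gene entered the test if at least 2 of the 8 libraries held over 1 count of it, which left 19080 genes. These were tested with the quasi-likelihood test of edgeR 4.0.16 (R 4.3.3, limma 3.58.1) after TMM scaling. The study used the likelihood ratio test of edgeR, run here as an alternative. Calls needed an adjusted p (Benjamini-Hochberg, 2-sided) under 0.05 together with a log2 fold change above 1 or below -1. On simulated counts the test recovered 100 of 100 genes changed by 2 on the log2 scale and 99 of 100 changed by 1.5, with 1 false call. The simulation gave all genes the same dispersion and changed few genes, with equal rises and falls, whose average level was well above the floor. It therefore does not measure errors among low genes or where many genes change. CPM values are TMM-scaled. Alternatives were DESeq2 1.42.0, other scalings, filters and thresholds, leaving out single libraries and, chosen after seeing the data, leaving out mitochondrially encoded genes. Genes were named by size of change among called genes without overlap at an average log2 CPM over 3, by change in CPM, by list, and from a set of single genes. The gene lists and the genes named were chosen with earlier results of these data known. Positions are from GENCODE 29 and promoters from RefSeq. Some genes the naming rule takes are not reported here.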

Additional observations from a re-analysis of the deposited data

Results flagged for a closer look

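Within a group of 4 libraries, 1 library lay far from the other 3 by Dixon's test at the 95% level in 23 of the 391 groups of gene values examined. Chance gives about 1 in 20 groups (5%). Values are CPM. CPT library 26 stood apart in 6 of them. It was high in MMP3 (86, the others 42.1 to 49.5), IL11 (29.3, the others 17.6 to 19.6) and FN1 (753, the others 602 to 623), and low in KRTAP2-3 (159, the others 215 to 223), SERPINE2 (473, the others 625 to 634) and TAP1 (75.8, the others 90.4 to 92.1). CPT library 27 was high in FAS (100.2, the others 66.3 to 71.7) and low in SNAI2 (30.4, the others 39.3 to 40.4). CPT library 28 was high in CD44 (416, the others 400.3 to 402.9) and was the CPT library with a count of KRT14 (0.364, under the floor of 3 counts). CPT library 29 was low in CCN1 (566.8, the others 649 to 664) and high in IL32 (30.4, the others 22.9 to 24).

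DMSO library 31 was high in CLDN1 (12.1, the others 5.92 to 6.86), COL4A1 (163, the others 119 to 124), GADD45A (43, the others 29.6 to 31.4) and TAP1 (47.1, the others 27.4 to 30.1), and low in MYLK (30.2, the others 38.5 to 40.2). DMSO library 30 was high in DRD1 (46.8, the others 33.9 to 36) and MYOCD (52.5, the others 33.2 to 34.9). In the DMSO group LNCAROD had counts in library 30 alone (0.808), BCL2A1 in library 32 alone (0.286), and CCL5 and IL1A in library 33 alone (0.241 each).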

How the results depend on the processing

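Of 2569 genes called, 1520 higher and 1049 lower, the stricter expression filter of edgeR (filterByExpr, 12440 genes tested) left 1652, 919 of them higher. A test against a fold change of 2 (glmTreat) left 1000, with 680 higher and 320 lower, and without a limit on fold change 6093 passed, with 3176 higher and 2917 lower. When 1 library was left out, 2414 to 2547 genes were called, 1422 to 1533 higher and 980 to 1052 lower. The likelihood ratio test called 2964 and DESeq2 2154. With library size alone as the scaling all fold changes moved by -0.169 (median, log2), and the share of calls that were higher was 44.9% in place of 59.2%. CCNB1 (-1.06), CCNB2 (-1.13) and AXIN2 (-1.07) were then called, and ARSA (0.96), CTSS (adjusted p = 0.0528), FUCA1 (0.94), RELB (0.97) and TNFRSF10B (0.97) were not. DESeq2 did not call BCL2A1, CCL5, CTSS, HSPB2, IL1A and MAN2B1, and ITGA8 was lost with no filter. Of 196 genes named 174 were called, and 49 of these were no longer called by glmTreat. None of the named genes that were called changed direction in the alternatives where they were tested (18 were removed by filterByExpr), while BAX, EREG, FN1, MYL9, PCNA, TOP1 and VIM, none of them called, did so in at least 1. The causes of these moves were not tested. No paired analysis was run, because the labels do not say which CPT and DMSO libraries come from the same repeat. A pairing, if there was one, is not accounted for. Genes under about 1 CPM lie near the floor of 3 counts a library, and calls there rest on few counts.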

Other observations

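Neighbours of strongly changed genes were tallied over the tested genes within 250 kb, in regions chosen after their values were seen and without the pair of genes that defines each region. Around the hair keratin genes KRT34 and KRTAP2-3 on chromosome 17, 6 of 13 other tested genes rose and 1 fell, where 7.97% and 5.5% of all tested genes did. As the regions were chosen on their values, these tallies are a description, and those of the other regions are small. KRT20 (7.81 ± 2.3 CPM with CPT, SD, n = 4) and KRTAP4-9 (1.69 ± 0.589) were at 0 in every DMSO library, while KRT14 went the other way (0.091 ± 0.182 and 1.52 ± 0.342). Keratin genes resemble each other in sequence, and how reads shared between copies were counted is not given in the sources used here. Around COL17A1 and CFAP58 on chromosome 10, 1 of 9 other genes rose and 0 fell. This gene, SORCS3, a sorting receptor, was at 4.15 ± 0.606 and 1.63 ± 0.761 CPM, and the genes lying between COL17A1 and CFAP58, such as GSTO1 (46.6 ± 3.68 and 36.4 ± 5.2), were not called. Around CXCL14 and SLC25A48 on chromosome 5, 1 of 8 other genes rose and 0 fell, TGFBI, a matrix protein gene (158 ± 12.8 and 46.2 ± 5.67 CPM). Around MMP3 and MMP12 on chromosome 11, 0 of 6 other genes rose or fell, with MMP10 (0.582 ± 0.316 and 0.414 ± 0.357) and MMP13 (1.5 ± 1 and 1.14 ± 0.875) not called.

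Genes were also grouped by genomic length, among 12180 protein-coding genes with an average log2 CPM over 1. Of the 549 genes longer than 300 kb, 13.7% rose and 14% fell, against 7% and 6.26% of all genes in this set. The median log2 fold change of the long genes was -0.05.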
